A study of Mus musculus with 6 samples.

Results

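The genes described here carry out, trigger or hold back lytic cell death, or belong to the death receptor route. They were read in 4T1 cells with and without added Limch1. They are the 10 genes Zbp1, Ripk1, Ripk3 and Mlkl of necroptosis, Casp8 and Fas of the death receptor route, and Casp1, Casp4, Gsdmd and Gsdme of pyroptosis. Each was picked by its mouse symbol on build mm10 from a table of 26094 genes, and the FPKM of its transcripts (fragments scaled by transcript length and library size) were added up in each library. Of the 10 genes, 9 had rows, and all 9 reached the minimum of 1 FPKM in at least 3 of the 6 libraries that 11842 genes reached. Ripk3 (ENSMUSG00000022221, chr14:55784995-55788865, minus strand) was not analysed here. The cells are 4T1, a mouse breast cancer line grown in medium with 10% fetal bovine serum. Vector (3 libraries) is 4T1 infected with the empty lentiviral vector PLVX-ires-neo, and Limch1_OE (3 libraries) is 4T1 infected with that vector carrying mouse Limch1. Both groups thus share infection with virus packaged in HEK293T cells and antibiotic selection for stable lines. The labels do not say whether a line is 1 clone or a pool. They also do not say that replicates are separate cultures, and the p-values then reflect only how these libraries vary, possibly for technical reasons.

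Necroptosis and pyroptosis both end in rupture of the plasma membrane. In necroptosis, the kinases RIPK1 and RIPK3 assemble below death receptors, or ZBP1 binds RIPK3 after sensing Z-form nucleic acid, and RIPK3 phosphorylates the pseudokinase MLKL, which inserts into the membrane. Caspase-8 cleaves RIPK1 and RIPK3 and so holds this pathway back, while it also starts apoptosis below FAS. In pyroptosis, caspase-1 in inflammasomes, or the lipopolysaccharide sensor caspase-11 (the product of mouse Casp4), cuts gasdermin D, whose freed part forms pores. Gasdermin E forms pores of the same kind. Several of these genes are known to be induced by interferons, through the DNA elements named ISRE and GAS.

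The libraries matched their labels. Limch1 was at 0.25, 0.15 and 0.1 FPKM in the Vector libraries and at 23.96, 23.31 and 25.69 in the Limch1_OE libraries. FPKM summed to between 414837 and 425064 per library, and the read depth behind the values is unknown. The first principal component (74.9% of the variance) separated the groups, and the second (9%) set Limch1_OE replicate 1 apart from the other two Limch1_OE libraries. Of 10 mammary epithelial markers 9 had rows, and all 9 were tested, with Epcam at 107 ± 2.84 FPKM in Vector and 78.1 ± 3.34 in Limch1_OE (SD, n = 3 each). Epcam and Cdh1 fell (log2 changes of -0.44 and -0.18), Krt7 rose (0.37) and 6 missed the threshold. Of 12 leukocyte markers with rows, 11 were below 1 FPKM in both groups, among them Ptprc, which had a mean of 0 in Vector and 0.00333 in Limch1_OE. Cd68, which is not restricted to leukocytes, was the exception, at 26.6 ± 2.73 FPKM in Vector and 33.1 ± 2.76 in Limch1_OE. The summed leukocyte markers ranged over 23.8 to 28.7 FPKM in Vector and 30.28 to 35.66 in Limch1_OE. Of the fibroblast markers only Pdgfra was tested (1.45 ± 0.151 and 1.88 ± 0.121 FPKM, limma adjusted p = 0.0881). Fibroblast markers summed to at most 2.16 FPKM and endothelial markers to at most 0.43 in any library.

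Of the 9 genes measured, 5 were lower in Limch1_OE (Zbp1, Mlkl, Ripk1, Gsdmd and Casp8), 1 was higher (Fas) and 3 did not pass the test (Casp4, Casp1 and Gsdme). The test was limma on log2(FPKM + 1), and p-values were adjusted by the Benjamini-Hochberg method across the 11842 genes, with a threshold of 0.05. By the same test 34.6% of all tested genes were called, 20.2% as higher and 14.4% as lower. The median log2 change of the 9 genes was -0.27, beside 0.04 over all tested genes. The libraries of the groups did not overlap for 7 of the 9 genes, 6 lower and 1 higher, beside 49.1% of all tested genes (28.6% higher and 20.5% lower). These are bulk samples, in which fewer cells that express a gene and less RNA per cell cannot be told apart.

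**Figure D1:**
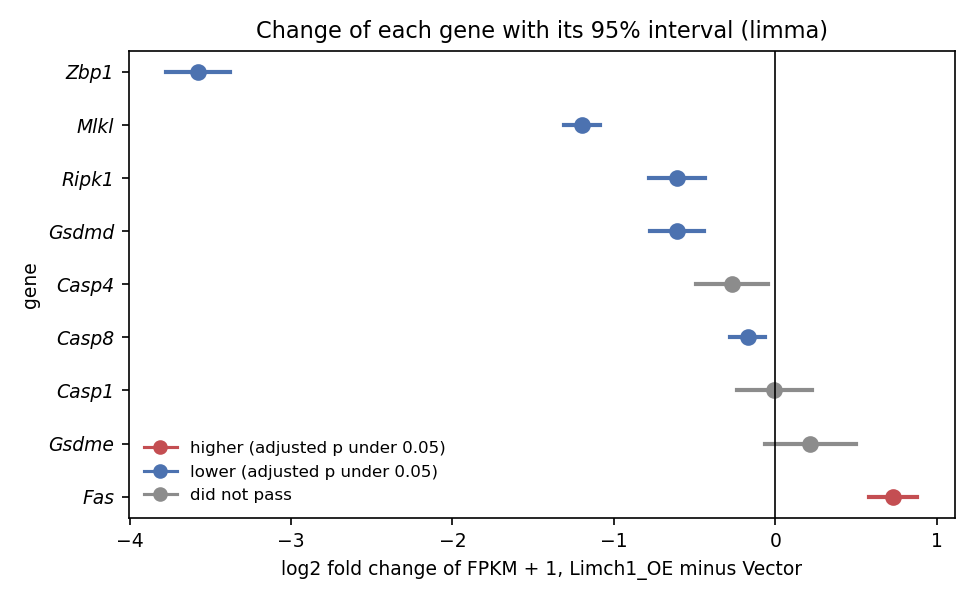
Log2 fold change of FPKM + 1, Limch1_OE minus Vector (x axis), for the 9 genes (y axis); points are limma estimates and bars their 95% intervals, coloured by call. Zbp1 lies farthest from 0 at -3.58, Mlkl follows at -1.20, and Fas alone is called higher, at 0.73.

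Zbp1 (ENSMUSG00000027514, chr2:173206612-173218923, minus strand), the sensor of Z-form nucleic acid, had the lowest log2 change of the 9 genes. It was at 62.85, 60.37 and 55.31 FPKM in Vector and at 4.21, 4.58 and 3.48 in Limch1_OE. The groups lie far apart, and what remained was 6.87% of the Vector mean. The means were 59.5 ± 3.84 and 4.09 ± 0.560 FPKM (SD, n = 3 each), and the log2 change was -3.58 (SE 0.09, limma adjusted p = 9.51e-09). All 3 listed Zbp1 transcripts were lower in every Limch1_OE library than in any Vector library. Zbp1-201, the longest coding form, held 47.32, 45.19 and 22.48 FPKM in Vector and 2.42, 2.54 and 0.65 in Limch1_OE. Zbp1-202, which shares its first 3 exons and then ends in an exon of its own, varied little within a group, at 10.72, 10.47 and 10.92 FPKM in Vector and 1.36, 1.45 and 1.21 in Limch1_OE. Both passed the test over transcripts (log2 changes of -3.79 and -2.32, limma adjusted p = 0.00803 and 2.14e-04).

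The third Zbp1 transcript, Zbp1-203, keeps an intron of 1365 bases (chr2:173210734-173212098, mm10, minus strand). In replicate 3 of both groups it was high and Zbp1-201 was low, each set against the other replicates. It was at 4.81, 4.71 and 21.91 FPKM in Vector and at 0.43, 0.59 and 1.62 in Limch1_OE, a log2 change of -2.33 that did not pass (limma adjusted p = 0.0849). The share of Zbp1-201 in the gene's sum was accordingly 75.29%, 74.86% and 40.64% in Vector and 57.48%, 55.46% and 18.68% in Limch1_OE, and the groups overlap (exact permutation p = 0.3, two-sided). Without Zbp1-203 the gene still summed to 58.04, 55.66 and 33.4 FPKM in Vector and to 3.78, 3.99 and 1.86 in Limch1_OE, with no overlap (exact permutation p = 0.1, two-sided, the smallest that 3 libraries against 3 allow). The boundary where this transcript runs on into the intron is shown because it is what tells Zbp1-203 from Zbp1-201. The sequence is from GENCODE M21 transcripts (mm10), 5′ to 3′ on the minus strand, with the first 60 bases of the intron in capitals (chr2:173212039-173212098).
Zbp1-203 intron start: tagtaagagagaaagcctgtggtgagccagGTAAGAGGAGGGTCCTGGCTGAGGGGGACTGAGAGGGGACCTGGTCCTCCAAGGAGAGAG

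Ripk1 (ENSMUSG00000021408, chr13:34002363-34037147, plus strand) encodes the kinase and scaffold that sits at the TNF receptor and in the necrosome. It was at 9.77, 9.25 and 8.62 FPKM in Vector and at 5.56, 6.19 and 5.33 in Limch1_OE. Every Limch1_OE library was below every Vector library, and the drop was much smaller than that of Zbp1. The means were 9.21 ± 0.576 and 5.69 ± 0.445 FPKM (SD, n = 3 each), and the log2 change was -0.61 (SE 0.08, limma adjusted p = 5.67e-04). Its transcripts Ripk1-201 and Ripk1-203 have coding sequences of the same length (1968 bases) and different start sites. Ripk1-203 was at 5.68, 6.09 and 6.11 FPKM in Vector and at 3.27, 2.82 and 4.05 in Limch1_OE, and it passed the test (log2 change -0.68, limma adjusted p = 0.0411). Ripk1-201 was at 4.01, 3.06 and 2.5 FPKM in Vector and at 2.24, 3.22 and 1.27 in Limch1_OE, where the groups overlap (log2 change -0.40, limma adjusted p = 0.426). That the transcripts moved unequally was not shown, since the share of Ripk1-203 overlapped between groups (exact permutation p = 0.7, two-sided).

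Promoter sequence was at hand for 8 of the 10 genes, in 10 windows of 250 bases before to 50 bases after a start site (RefSeq, GRCm38.p6). Zbp1 and Gsdmd had no entry. The windows were searched on both strands for the ISRE as GAAANNGAAA, found in 3.44% of all 32851 windows of that length, and for the GAS as TTCNNNGAA, found in 8.3%. Only the second Ripk1 window, at the start of Ripk1-203, held an ISRE match, and only that window and the Fas window held GAS matches. No match was found in the first Ripk1 window, at the start of Ripk1-201, or in those of Mlkl, Ripk3, Gsdme, Casp1, Casp4 and Casp8. The only Casp8 window lies at the start of Casp8-202. The upstream start of Casp8-201, the most abundant Casp8 transcript, had no window and was not searched. Positions count from the start site, with negative values before it. In Ripk1 the ISRE letters begin at -5 and the GAS letters at -108 and -11, and the last of these overlaps the ISRE. In Fas the GAS letters begin at -93. Both windows (chr13:34002624-34002923 and chr19:34290409-34290708, plus strand) are shown with these letters in capitals, because Ripk1 and Fas moved in opposite directions. A match describes letters and not binding.
Ripk1 window at the start of Ripk1-203: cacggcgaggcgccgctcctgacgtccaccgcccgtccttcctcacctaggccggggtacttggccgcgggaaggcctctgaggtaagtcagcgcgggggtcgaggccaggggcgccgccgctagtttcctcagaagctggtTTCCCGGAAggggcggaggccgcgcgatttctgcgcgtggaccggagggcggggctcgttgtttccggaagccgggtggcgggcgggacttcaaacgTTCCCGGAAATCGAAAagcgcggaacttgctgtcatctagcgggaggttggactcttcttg
Fas window: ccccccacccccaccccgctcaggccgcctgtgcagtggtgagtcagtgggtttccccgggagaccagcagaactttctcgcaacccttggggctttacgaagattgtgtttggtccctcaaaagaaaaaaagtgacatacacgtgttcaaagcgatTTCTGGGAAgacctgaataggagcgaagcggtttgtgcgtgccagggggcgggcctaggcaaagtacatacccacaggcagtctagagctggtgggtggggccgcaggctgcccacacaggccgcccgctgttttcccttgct

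Mlkl (ENSMUSG00000012519, chr8:111311797-111338177, minus strand), the executioner of necroptosis, was the most abundant of the 9 genes in Vector and was 2.33-fold lower in Limch1_OE. It was at 83.05, 80.54 and 88.8 FPKM in Vector and at 35.99, 36.09 and 36.29 in Limch1_OE. The Limch1_OE libraries were nearly equal to each other and all below the Vector range. The means were 84.1 ± 4.23 and 36.1 ± 0.153 FPKM (SD, n = 3 each), and the log2 change was -1.20 (SE 0.05, limma adjusted p = 2.72e-07). Its signal was carried by a pair of coding transcripts that differ by 24 bases in exon 10 of 11. Mlkl-202, without them, held 45.99, 46.91 and 44.05 FPKM in Vector and 19.81, 23.3 and 19.82 in Limch1_OE. Mlkl-201, with them, held 35.19, 31.52 and 42.79 FPKM in Vector and 15.2, 11.97 and 15.52 in Limch1_OE. Both fell (log2 changes of -1.09 and -1.30, limma adjusted p = 0.00166 and 0.00886), as did the minor Mlkl-204 (-0.65, limma adjusted p = 0.0350). The share of Mlkl-202 ranged from 49.61% to 64.56% and overlapped between groups (exact permutation p = 0.6, two-sided). The alternative bases are shown because they are the difference between the forms that fell together. They lie at chr8:111314941-111314964 (mm10, minus strand), and the sequences, from GENCODE M21, run 5′ to 3′ with these bases in capitals.
Mlkl-201: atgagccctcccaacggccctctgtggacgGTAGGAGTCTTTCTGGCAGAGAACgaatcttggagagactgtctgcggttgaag
Mlkl-202: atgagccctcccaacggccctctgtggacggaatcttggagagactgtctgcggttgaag

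The tested genes whose 6 values lay closest to those of Mlkl, after centring each gene on its own mean, were Trim21, Tdrd7 and Parp10. Their Euclidean distances on the log2(FPKM + 1) scale were 0.0871, 0.112 and 0.124, and their log2 changes were -1.23, -1.25 and -1.16. Trim21 encodes a cytosolic antibody receptor and ubiquitin ligase.

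Casp8 (ENSMUSG00000026029, chr1:58795374-58847503, plus strand), the brake on necroptosis, was the third most abundant of the 9 genes in Vector and the first in Limch1_OE. It was at 44.32, 41.14 and 43.27 FPKM in Vector and at 37.21, 38.43 and 38.27 in Limch1_OE. The groups do not overlap, and the change was small. The means were 42.9 ± 1.62 and 38.0 ± 0.663 FPKM (SD, n = 3 each), and the log2 change was -0.17 (SE 0.05, limma adjusted p = 0.0230). The call ended without Vector replicate 1 (limma adjusted p = 0.0959), without Vector replicate 3 (0.0665) or without Limch1_OE replicate 2 (0.0562), while without Limch1_OE replicate 1, which stood apart on the second component, it held (0.0457). Read from Casp8-201 alone, its most abundant transcript, the log2 change was 0.00 (limma adjusted p = 0.992).

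The main Casp8 transcripts, Casp8-201 and Casp8-202, have coding sequences of equal length (1440 bases) and start sites 7128 bases apart. Their split was uneven within Vector. Casp8-201 was at 20.67, 35.46 and 24.6 FPKM in Vector and at 26.28, 27.71 and 25.02 in Limch1_OE. Casp8-202 was at 22.26, 0.45 and 18.04 FPKM in Vector and at 10, 9.57 and 11.79 in Limch1_OE. Vector replicate 2 held 86.19% of its Casp8 signal in Casp8-201, and most of the rest, 5.23 FPKM, in Casp8-203, which starts near Casp8-202. The groups overlap for both main forms. Neither passed (log2 changes of 0.00 and 0.40, limma adjusted p = 0.994 and 0.855). The positive sign for Casp8-202 is not a rise in FPKM, whose mean was 13.6 ± 11.6 in Vector and 10.5 ± 1.18 in Limch1_OE. On the log scale, the 0.45 FPKM of Vector replicate 2 pulls the Vector mean down.

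Fas (ENSMUSG00000024778, chr19:34290666-34327772, plus strand), the death receptor through which FAS ligand recruits FADD and caspase-8, was the one gene of the 9 that rose. It was at 8.36, 7.54 and 8.41 FPKM in Vector and at 14.1, 14.68 and 13.53 in Limch1_OE. Every Limch1_OE library was above every Vector library. The means were 8.10 ± 0.489 and 14.1 ± 0.575 FPKM (SD, n = 3 each), 1.74-fold apart, and the log2 change was 0.73 (SE 0.07, limma adjusted p = 7.46e-05).

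Several Fas forms contributed. Fas-201, the leading coding form, was at 8.2, 7.48 and 5.94 FPKM in Vector and at 10.9, 10.18 and 12.47 in Limch1_OE, with no overlap (log2 change 0.58, limma adjusted p = 0.0666, not past the threshold). Fas-204, annotated as a target of nonsense-mediated decay, was at 0.1, 0.06 and 0.02 FPKM in Vector and at 2.72, 4.25 and 0.71 in Limch1_OE, under the minimum for testing. It was higher in each Limch1_OE library than in any Vector library, and it varied several-fold among the Limch1_OE libraries. Without Fas-204, the gene summed to 8.26, 7.48 and 8.39 FPKM in Vector and to 11.38, 10.43 and 12.82 in Limch1_OE, still with no overlap (exact permutation p = 0.1, two-sided, the smallest possible). Fas-203, which lacks the exon that encodes the membrane span, was at 2.4 FPKM in Vector replicate 3 and at 0 in the other libraries. The exons that set these forms apart are shown in capitals between their neighbours, from GENCODE M21 (mm10, plus strand). The exon added in Fas-204 is 158 bases long (chr19:34310012-34310169), and the exon left out of Fas-203 is 54 bases long (chr19:34318783-34318836).
Fas-204 added exon: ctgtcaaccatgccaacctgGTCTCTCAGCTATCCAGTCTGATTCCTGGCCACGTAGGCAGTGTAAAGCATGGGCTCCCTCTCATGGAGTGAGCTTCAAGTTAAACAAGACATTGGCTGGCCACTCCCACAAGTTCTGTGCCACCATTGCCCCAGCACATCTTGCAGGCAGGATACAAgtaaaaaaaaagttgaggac
Fas-201 exon left out of Fas-203: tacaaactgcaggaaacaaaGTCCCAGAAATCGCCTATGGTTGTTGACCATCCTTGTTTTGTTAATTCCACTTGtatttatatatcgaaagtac

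The tested genes closest to Fas by the same distance were Gm37282, Ccdc163 and Kantr, at 0.129, 0.132 and 0.150, with log2 changes of 0.74, 0.70 and 0.80. Fas was below Casp8 in both groups, and the gap between them was smaller in Limch1_OE. The difference Casp8 minus Fas in log2(FPKM + 1) was 2.28, 2.30 and 2.23 in Vector and 1.34, 1.33 and 1.43 in Limch1_OE. It narrowed by a mean of 0.90, with no overlap between groups, and the exact permutation p of 0.1 (two-sided) was the smallest possible and 0.15 after adjustment over the 3 pairs of genes compared.

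**Figure D2:**
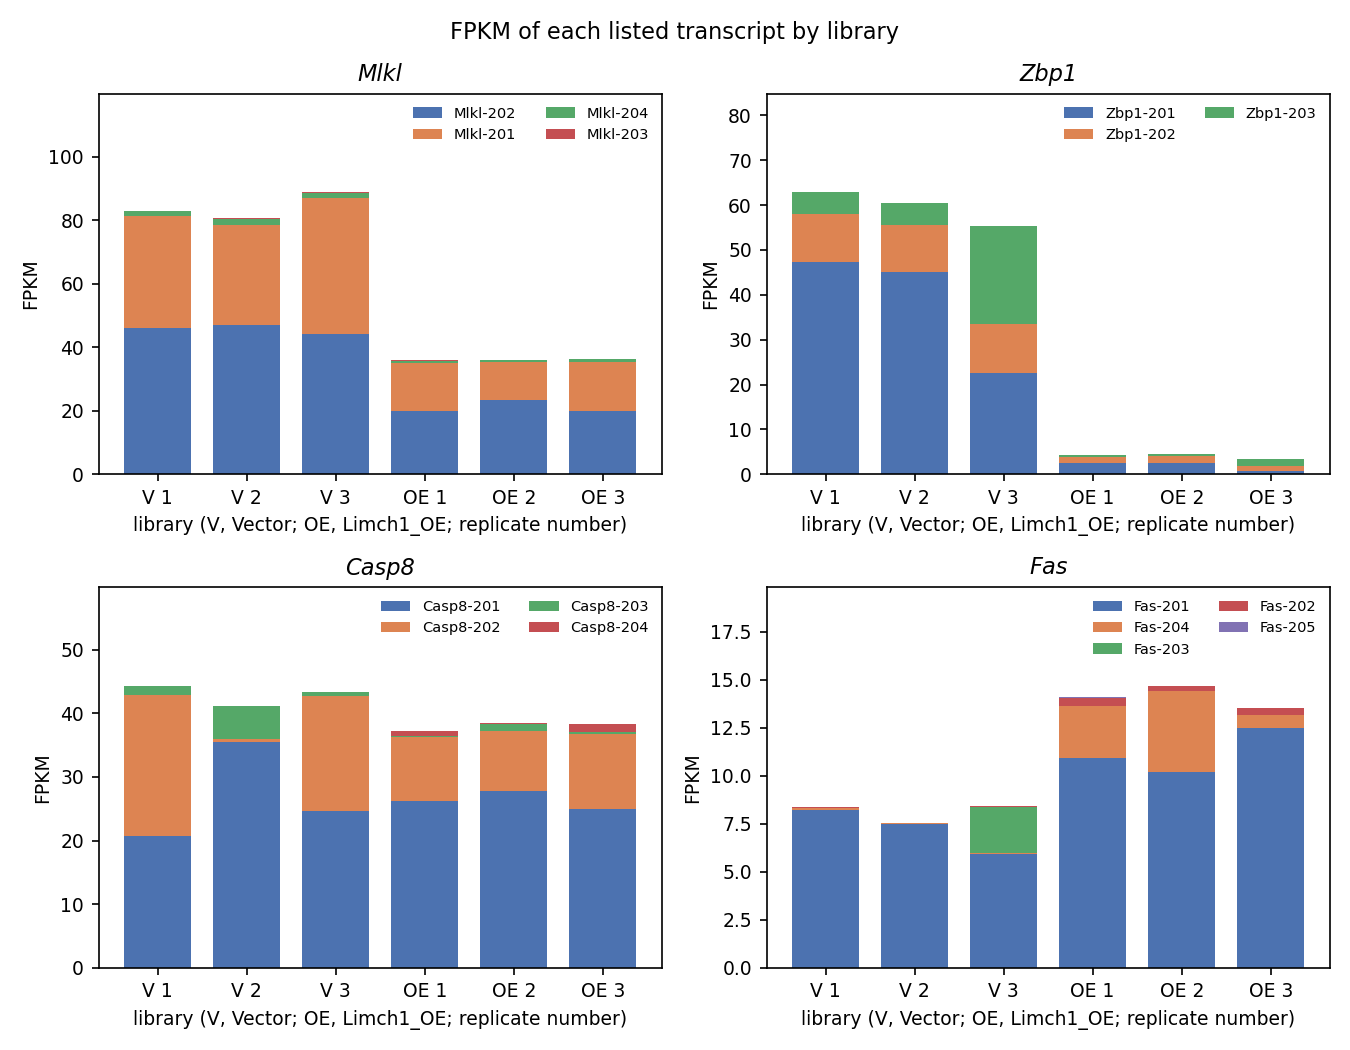
FPKM (y axis) of each listed transcript of Mlkl, Zbp1, Casp8 and Fas, stacked by library (x axis; V, Vector; OE, Limch1_OE, with the replicate number). The stacks of Mlkl and Zbp1 are lower in all Limch1_OE libraries, Zbp1-203 is enlarged in replicate 3, Casp8-202 is nearly missing from Vector replicate 2, and Fas-204 appears in the Limch1_OE libraries.

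Gsdmd (ENSMUSG00000022575, chr15:75862327-75867408, plus strand) encodes gasdermin D, the pore former below caspase-1 and caspase-11. It was at 6.81, 7.66 and 7.4 FPKM in Vector and at 4.33, 4.71 and 4.28 in Limch1_OE. The groups do not overlap. The means were 7.29 ± 0.436 and 4.44 ± 0.235 FPKM (SD, n = 3 each), and the log2 change was -0.61 (SE 0.07, limma adjusted p = 4.69e-04). Most of it was Gsdmd-201, at 5.54, 7.17 and 5.57 FPKM in Vector and 3.61, 4.02 and 3.5 in Limch1_OE, a difference that did not pass over transcripts (log2 change -0.58, limma adjusted p = 0.0549). The tested genes closest to Gsdmd were Pstpip1, Tmem173 (the gene of the DNA-sensing adaptor STING) and 9530082P21Rik, at distances of 0.0819, 0.101 and 0.106, with log2 changes of -0.63, -0.62 and -0.60.

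Gsdme (ENSMUSG00000029821, chr6:50188888-50263862, minus strand), the gene of the pore former gasdermin E, was the least abundant of the 9 genes in both groups. It was at 1.38, 1.4 and 1.6 FPKM in Vector and at 2.27, 1.95 and 1.42 in Limch1_OE. Limch1_OE replicate 3 lay inside the Vector range and the other two libraries lay above it. The log2 change was 0.22 (SE 0.12, 95% interval -0.06 to 0.50, limma adjusted p = 0.205), and without Limch1_OE replicate 3 it was 0.34 (limma adjusted p = 0.0491). The rows used here hold 5 of the 7 annotated Gsdme transcripts. Among them Gsdme-206, a retained-intron form with 16.9% to 21.15% of the sum per library, lies wholly inside the overlap with Mpp6. Its signal may therefore include reads of Mpp6, which was not tested. The difference Gsdmd minus Gsdme in log2(FPKM + 1) was 1.71, 1.85 and 1.69 in Vector and 0.71, 0.95 and 1.13 in Limch1_OE, lower by a mean of 0.82 with no overlap (exact permutation p = 0.1, two-sided, the smallest possible, and 0.15 adjusted over the 3 pairs).

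Casp1 (ENSMUSG00000025888, chr9:5298517-5307265, plus strand), the inflammasome caspase, was at 3.07, 2.61 and 2.45 FPKM in Vector and at 3.01, 2.73 and 2.35 in Limch1_OE. The groups overlap almost fully. The log2 change was -0.01 (SE 0.10, 95% interval -0.24 to 0.23, limma adjusted p = 0.972). Its neighbour Casp4 (ENSMUSG00000033538, chr9:5308828-5336783, plus strand), the gene of caspase-11, was at 3.93, 4.54 and 5.26 FPKM in Vector and at 3.43, 3.63 and 3.76 in Limch1_OE. Every Limch1_OE library was below every Vector library, but the change missed the threshold (log2 change -0.27, SE 0.10, 95% interval -0.49 to -0.05, limma adjusted p = 0.0625). It passed with scaling by the trimmed mean of M values (limma adjusted p = 0.0424), with quantile normalization (0.0395) and without Vector replicate 1 (0.0332). The difference Casp1 minus Casp4 in log2(FPKM + 1) was -0.28, -0.62 and -0.86 in Vector and -0.14, -0.31 and -0.51 in Limch1_OE, with overlap (exact permutation p = 0.3, two-sided, and 0.3 adjusted over the 3 pairs).

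**Figure D3:**
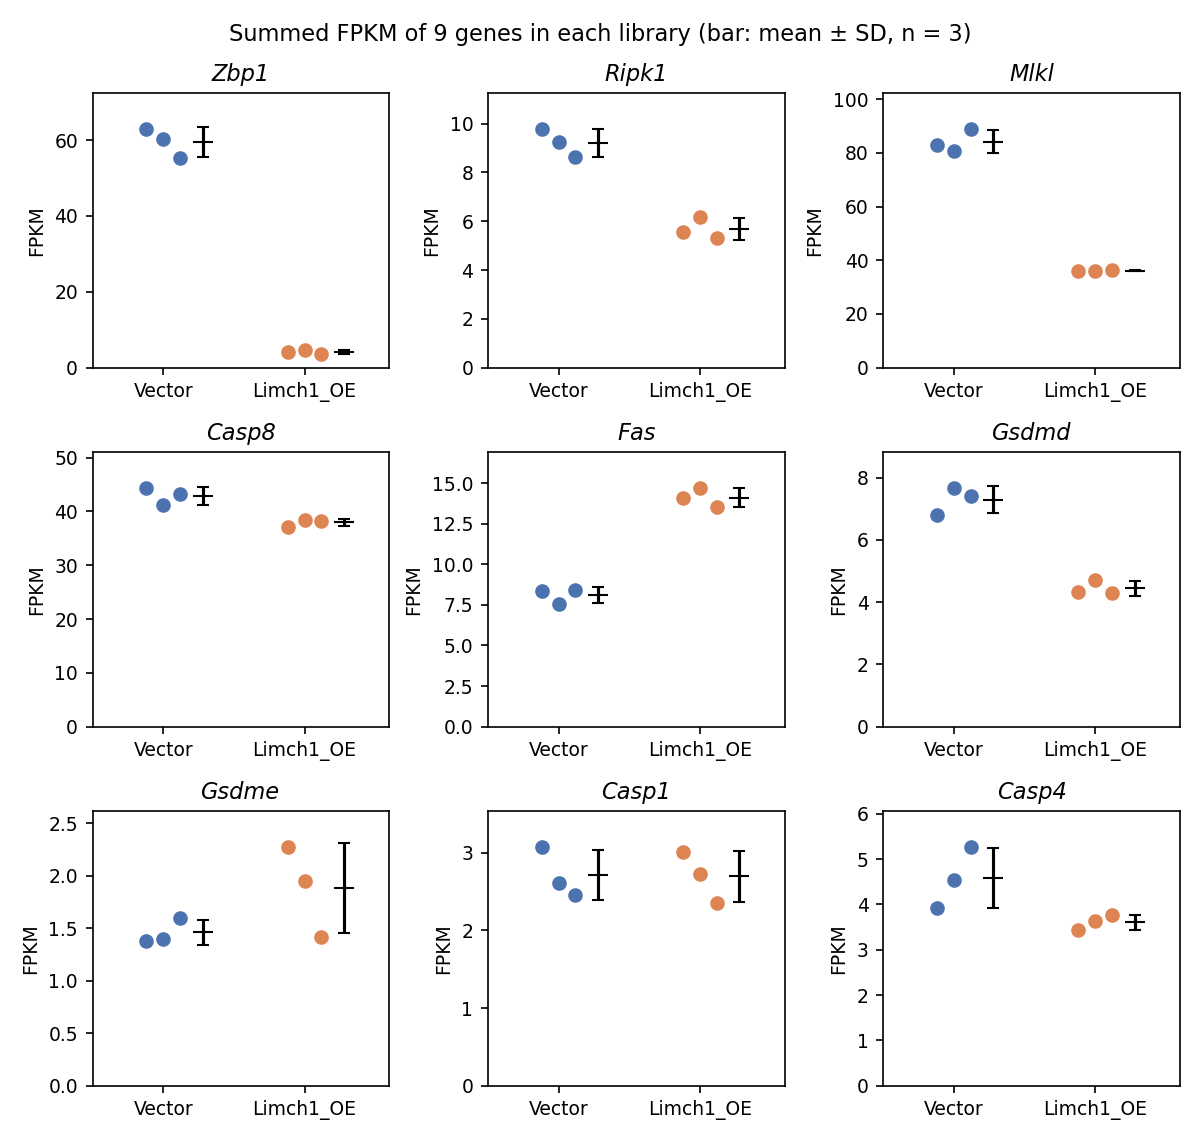
Summed FPKM (y axis, from 0) of each of the 9 genes in the 3 Vector and 3 Limch1_OE libraries (points, left to right by replicate number), with the mean and SD beside them. Points of the groups are separate in all panels except those of Gsdme and Casp1.

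FPKM is per length, so levels can be ranked across genes, as far as the listed transcripts cover each gene. In Vector the order from high to low was Mlkl, Zbp1, Casp8, Ripk1, Fas, Gsdmd, Casp4, Casp1 and Gsdme, and of these neighbours only Fas and Gsdmd overlapped in their libraries. In Limch1_OE the order was Casp8, Mlkl, Fas, Ripk1, Gsdmd, Zbp1, Casp4, Casp1 and Gsdme, and Gsdmd, Zbp1 and Casp4 overlapped in turn. Zbp1 thus went from the second place to a level that overlapped Gsdmd and Casp4, and Fas moved above Ripk1. Of the transcripts of the 9 genes, 15 reached the minimum, of which limma called 6 lower, 0 higher and 9 neither, beside 7.24% called of all 19905 tested transcripts (3.12% higher and 4.12% lower). At an unadjusted p under 0.05, 8 were lower and 1, Fas-201, was higher. The 6 called were Mlkl-201, Mlkl-202, Mlkl-204, Ripk1-203, Zbp1-201 and Zbp1-202. The share of the leading transcript overlapped between groups in each of the 9 genes (exact permutation p between 0.3 and 1.0, two-sided). For Zbp1-201 the overlap rests on Vector replicate 3 (40.64%), and replicate 3 was also the lowest of the Limch1_OE libraries (18.68%). Among the 41 listed transcripts of the 9 genes, the share did not overlap between groups for 4, Zbp1-202, Fas-202, Fas-204 and Casp8-204, which were picked out after their values were seen. How many transcripts of all genes separate in this way was not computed. Each such separation has an exact permutation p of 0.1 (two-sided). A count of 4 among 41 is thus not read as a change in these genes. The share of Zbp1-202 was 17.06%, 17.34% and 19.74% in Vector and 32.3%, 31.66% and 34.77% in Limch1_OE (means of 18.1% ± 1.47 and 32.9% ± 1.64, SD, n = 3 each; exact permutation p = 0.1, two-sided, the smallest possible). The share of this shorter Zbp1 form was higher in every Limch1_OE library than in any Vector library. It was picked for that separation, so a change in transcript use was not shown. The other 3 were higher in share in Limch1_OE, and each was below 1 FPKM in every Vector library.

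Other genes around the necrosome and the TNF receptor complex split in direction, with large falls in a few of them. Of 33 listed genes 32 were tested: 7 fell, 3 rose and 22 missed the threshold (31.2% called, beside 34.6% of all tested genes). The median log2 change of the 32 was 0.01. The lowest were Adar, whose product edits double-stranded RNA and restrains ZBP1, Tlr3, a receptor of double-stranded RNA, and Rnf31, the catalytic subunit HOIP of the linear ubiquitin ligase. Adar went from 65.9 ± 4.77 to 24.7 ± 1.69 FPKM (SD, n = 3 each, log2 change -1.38, limma adjusted p = 1.12e-06), but its most abundant transcript alone did not pass (-0.59, limma adjusted p = 0.315). Tlr3 went from 39.8 ± 1.68 to 18.4 ± 2.62 FPKM, and Rnf31 from 35.4 ± 0.915 to 17.5 ± 1.37, log2 changes of -1.08 and -0.98. The genes that rose were Stub1 (0.36), a ubiquitin ligase, Rbck1 (0.25), a further subunit of the linear ubiquitin ligase, and the phosphatase Ppm1b (0.17), whose call ended with scaling to equal FPKM sums (limma adjusted p = 0.0758), by the trimmed mean of M values (0.101) or with a replicate block (0.0530). Fadd, the adaptor between FAS and caspase-8, was at 2.31, 2.86 and 2.94 FPKM in Vector and at 2.62, 3 and 2.64 in Limch1_OE (limma adjusted p = 0.881).

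Of the other inflammasome and pyroptosis genes, few were expressed. Of 39 listed genes 28 had rows and 13 were tested, and 15 were below 1 FPKM in both groups, among them the adaptor Pycard (means of 0.01 and 0.0333 FPKM in Vector and Limch1_OE) and the sensors Nlrp3 (0.0767 and 0.147) and Aim2 (0.40 and 0.217). Of the 13, 5 fell, 3 rose and 5 missed the threshold (61.5% called, beside 34.6% of all tested genes). The median log2 change of the 13 was -0.26. The lowest were the guanylate-binding protein genes Gbp5 and Gbp2, whose products are known for exposing bacteria to caspase-11, and Il1a, the gene of the alarmin interleukin-1 alpha. Gbp5 went from 8.54 ± 0.704 to 1.18 ± 0.218 FPKM, Gbp2 from 153 ± 11.9 to 42.3 ± 2.79 and Il1a from 101 ± 2.77 to 49.4 ± 1.78 (SD, n = 3 each), log2 changes of -2.13, -1.83 and -1.02. The genes that rose were Casp12 (0.44), which lies next to Casp4, Nek7 (0.33), a partner of NLRP3, and Dpp9 (0.18), an inhibitor of NLRP1, whose call ended with scaling to equal FPKM sums (limma adjusted p = 0.0535) or by the trimmed mean of M values (0.0754). Il1b, the gene of interleukin-1 beta, was at 1.22 ± 0.222 and 0.767 ± 0.214 FPKM (limma adjusted p = 0.0765), and Ninj1, which ruptures the membrane after pores have formed, was at 9.79 ± 1.14 and 10.7 ± 0.274 (0.288).

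Genes of membrane repair after pore formation, mostly ESCRT-III subunits and annexins, were all 17 tested. Of these, 7 fell, 4 rose and 6 missed the threshold (64.7% called, beside 34.6% of all tested genes). The median log2 change of the 17 was -0.13. The lowest was the ESCRT-III subunit Chmp4b, which went from 108 ± 1.08 to 75.9 ± 1.32 FPKM (SD, n = 3 each, log2 change -0.51, limma adjusted p = 3.70e-05), followed by Rab27b (-0.43) and Anxa6 (-0.40). The 3 highest were Chmp4c (0.23), Vps4b (0.20) and Anxa1 (0.20). The calls of Chmp4c (limma adjusted p = 0.0568) and Anxa1 (0.0629) ended with scaling by the trimmed mean of M values, under which 8 of the 17 fell and 1 rose, while 5 fell and 5 rose with quantile normalization.

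Among other death receptors and ligands 7 of 14 listed genes were tested: by limma 3 fell, 0 rose (0 also at an unadjusted p under 0.05) and 4 missed the threshold. Thus 42.9% were called, beside 34.6% of all tested genes. The median log2 change of the 7 was -0.01. Those that fell were Daxx (-0.81), a FAS-associated protein, Ltbr (-0.27) and Tnfrsf10b (-0.22), the mouse TRAIL receptor. The ligand gene Tnfsf10, which encodes TRAIL, was below the minimum for testing, with means of 0.967 ± 0.0723 FPKM in Vector and 0.0933 ± 0.0404 in Limch1_OE (SD, n = 3 each).

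The apoptotic caspases and the apoptosome had 12 of 13 genes tested. Of these, 3 fell, 2 rose and 7 missed the threshold (41.7% called, beside 34.6% of all tested genes). The median log2 change of the 12 genes was 0.01. Among them Casp2 (-0.43) and Cycs (-0.34), the gene of cytochrome c, fell, and Dffb (0.59), the apoptotic nuclease, and Aifm1 (0.23) rose, the latter not with scaling by the trimmed mean of M values (limma adjusted p = 0.0585). In the BCL2 family, which governs the mitochondrial route, 15 of 21 genes were tested. Of these, 4 fell, 4 rose and 7 missed the threshold (53.3% called, beside 34.6% of all tested genes). The median log2 change of the 15 was 0.06. The lowest were Bak1 (-0.39), Mcl1 (-0.35) and Bid (-0.31), and the highest were Bik (0.62), Bcl2l11 (0.39), the gene of BIM, and Bcl2l12 (0.39). Bid is the substrate that links caspase-8 to mitochondria. Genes whose products promote death thus stood on both sides (Bak1 and Bid lower, Bik and Bcl2l11 higher), and Mcl1, which opposes death, was lower. Read from the most abundant transcript alone, the calls also ended for Stub1, Rbck1, Ppm1b, Nek7, Dpp9, Chmp4c, Vps4b, Rab27b, Anxa1, Aifm1, Bak1, Bcl2l12, Krt7 and Cd68 (limma adjusted p between 0.0708 and 0.848), and Anxa1 changed sign (-0.52).

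**Figure D4:**
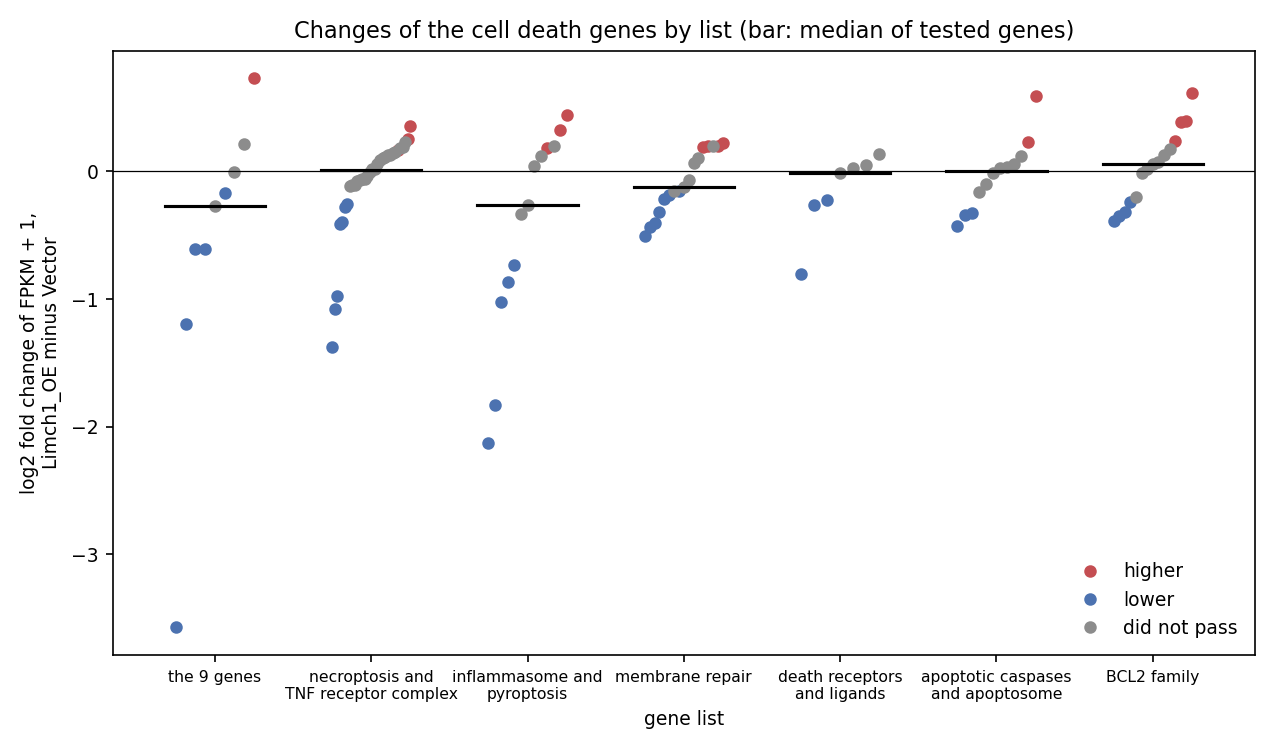
Log2 fold change of FPKM + 1, Limch1_OE minus Vector (y axis), of each tested gene in the 9 genes described and in 6 lists of related cell death genes (x axis), coloured by call, with bars at the medians. The medians run from -0.27 for the 9 genes to 0.06 for the BCL2 family, and the lowest points belong to Zbp1, Gbp5 and Gbp2.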

How the data were processed

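RNA sequencing values came from the deposited table, which gives FPKM per transcript for 3 Vector and 3 Limch1_OE libraries, per the file headers. Build mm10 and the tools STAR 2.7.10, StringTie 2.2.1, featureCounts 2.0.1 and fastp 0.23.2 are listed, without roles, per the submitters' processing notes. For the annotation release, strand use and filters, the sources used here give nothing. Ripk1 overlaps the antisense gene Serpinb6a and Gsdme overlaps Mpp6, so reads of these pairs may not be separable. No whole-read steps were found, so depth is unknown, no counting interval is given and no count test was run.

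The 77865 transcripts were summed per gene, and 26033 of 26094 gene identifiers matched symbols in GENCODE M21. Groups came from the sample titles, because other label fields number the gene and cell line through the series. Genes and transcripts with at least 1 FPKM in 3 of 6 libraries were tested with limma 3.58.1 in R 4.3.3 (lmFit, eBayes with trend) on log2(FPKM + 1), as a two-sided test, and p-values were adjusted by Benjamini-Hochberg across all features tested (threshold 0.05). This scale understates changes of low genes. The code was tested on simulated data. Of simulated log2 changes of 0.5 and 1, it recovered 64% and 95% over genes, but 17% and 41% over transcripts. A transcript that did not pass is therefore not shown to be unchanged. Single values were compared by exact two-sided permutation tests, which cannot go below 0.1. Of 5 planned pairs of genes, 3 could be compared, since 2 needed Ripk3.

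The genes and lists were chosen with earlier results of these data known. All 10 genes are named, with the 3 lowest and 3 highest called genes of each other list and the 3 tested genes nearest to Mlkl, Gsdmd and Fas; a few others (Fadd, Pycard, Nlrp3, Aim2, Il1b, Ninj1, Tnfsf10 and Ptprc) were named for their role after their values were seen. Some genes of these lists are not reported here. Alternatives were other pseudocounts, filters, scalings, the most abundant transcript, a replicate block, robust eBayes and leaving out each library.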

Additional observations from a re-analysis of the deposited data

How the results depend on the processing

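Zbp1, Mlkl, Ripk1, Gsdmd and Fas kept their direction and passed the threshold in all 17 settings run, with log2 changes of -3.84 to -3.49, -1.24 to -1.09, -0.69 to -0.57, -0.70 to -0.58 and 0.58 to 0.79. Leaving out each library in turn gave 5 to 7 called genes of the 9, 4 to 5 called transcripts and 2882 to 3778 called genes in all. The differences between pairs ranged over -0.92 to -0.71 for Gsdmd minus Gsdme, 0.13 to 0.42 for Casp1 minus Casp4 and -0.94 to -0.88 for Casp8 minus Fas. When each gene was read from its most abundant transcript only, 1996 genes were called, beside 4094, and Casp8 changed by 0.00 and Casp1 by 0.02. Casp1, at -0.01 with all libraries, ranged from -0.07 to 0.06 with 1 library left out, turning to 0.06 without Vector replicate 1 and without Limch1_OE replicate 3, and the cause was not tested. Of all calls 58.3% were higher as deposited, 47.1% with the trimmed mean of M values, 51.5% scaled to equal FPKM sums and 49.9% with the most abundant transcript. A minimum of 5 FPKM left Casp1, Casp4 and Gsdme out. With a replicate block 3808 genes were called in all, 6 of the 9 genes and 4 of their transcripts. Same-numbered libraries deviated with correlations of -0.002, 0.046 and 0.059, so the numbers were not read as pairs. Read depth is unknown, which limits what can be said of values below 1 FPKM.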
